A study of Mus musculus with 12 samples.

Results

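The long noncoding RNAs (lncRNAs) RP23-71C23.1, Ntmt1, 4930542D17Rik, RP23-309A11.2 and, last, RP23-272P19.8 were followed across m6A-bound and unbound RNA from mouse lung with chronic allergic asthma. They were chosen by the readout itself, as 5 entries of the study's list of lncRNAs higher in the m6A-bound RNA of asthmatic lungs. Each was located as the 1 array probe whose deposited difference between groups and two-sample P matched the listed pair, which made 5 of the 56554 transcript probes of the array. All 5 lay among the 8497 probes whose identifiers carry the mark EP3B. The probes are ASMM10EP3B100028233 for RP23-71C23.1, ASMM10EP3B103328389 for Ntmt1, ASMM10EP3B100032561 for 4930542D17Rik, ASMM10EP3B100006216 for RP23-309A11.2 and ASMM10EP3B100012865 for RP23-272P19.8.

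N6-methyladenosine (m6A) is the most common internal modification of messenger RNA and is also placed on many lncRNAs, by a writer complex around METTL3 and METTL14. It is removed by the erasers FTO and ALKBH5 and read by proteins of the YTH family, which change the splicing, export, translation and decay of the marked RNA. lncRNAs are transcripts without a long open reading frame that are often transcribed next to, inside or antisense to protein-coding genes.

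The study used female BALB/c mice, labelled as 8 to 10 weeks old (the study's methods give a younger range), and took whole lung. The 3 asthma mice were injected into the peritoneum with 0.01% ovalbumin on days 0 and 7 and then breathed a 2.5% ovalbumin aerosol 3 times a week for 7 weeks, and the 3 control mice received phosphate-buffered saline by both routes. The labels give no other difference between the groups and name no transgene. From each lung, an antibody against m6A split the RNA into a bound fraction (IP, labelled Cy5) and the unbound supernatant (Sup, labelled Cy3), which were hybridised together on 1 two-colour array, so the 12 samples were 6 arrays from 6 mice. Each channel was scaled to its own spike-in probes, so the IP to Sup ratio is a relative measure and not a share of methylated molecules. In whole lung, fewer or more cells of a type and less or more RNA per cell cannot be told apart.

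Across the 6 arrays, 60.1% to 70.0% of transcript probes were well above background in IP and 80.4% to 84.4% in Sup. The IP share was 69.5% to 70.0% in the asthma mice and 60.1% to 66.7% in the controls. The 3 asthma mice and control 1 shared 1 slide, and controls 2 and 3 were on a second slide. The median log2 IP to Sup ratio over 37077 probes was 0.27, 0.31 and 0.26 in asthma mice 1 to 3 and 0.17, 0.02 and 0.02 in controls 1 to 3. Values below are log2 signals relative to the mean of 114 spike-in probes of the same array and channel, after background correction. On this scale, the median difference between groups (asthma minus control) of all tested probes was 0.15 in IP, -0.07 in Sup and 0.25 in the ratio.

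The 5 loci fell on 3 chromosomes and had different kinds of neighbours in the RefSeq annotation of mouse build GRCm38.p6. RP23-71C23.1 is listed on the minus strand of chromosome 12, in a stretch without a RefSeq gene. The closest annotated gene there was Gm32776, an lncRNA on the plus strand at chr12:106146889-106153220, so the 2 transcripts point away from each other. On the other side lay the lncRNAs Gm32635 and Gm32723 and then Vrk1, a nuclear serine/threonine kinase gene, at chr12:106010139-106078318. The entry named Ntmt1 lay on the plus strand of chromosome 2, inside the protein-coding gene Ntmt1 at chr2:30807945-30823033 and on the same strand. Ntmt1 encodes an enzyme that methylates the amino terminus of proteins. Where the probe sits within the transcript is not given in the sources used here, so signal from the coding mRNA and from the noncoding transcript cannot be told apart.

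4930542D17Rik was the only one of the 5 with a RefSeq lncRNA entry of its own, at chr16:50590503-50654166 on the plus strand. Its first 652 bases overlapped Ccdc54, a protein-coding gene on the opposite strand at chr16:50589859-50591154. RP23-309A11.2, on the plus strand of chromosome 12, lay wholly within the bounds of Serpina1c, which is on the minus strand at chr12:103894926-103904950, between Serpina1a and Serpina1e. These genes encode mouse forms of alpha-1 antitrypsin, an inhibitor of neutrophil elastase, and their sequences are close to one another, so a probe there can share signal among copies. RP23-272P19.8, on the minus strand of chromosome 16, lay inside the immunoglobulin lambda light chain locus Igl at chr16:19026858-19260844, between the joining segment Iglj2 and the variable segment Iglv3. It overlapped the lncRNA Gm35545, annotated on the plus strand at chr16:19218502-19245178. Immunoglobulin light chains are made by B cells and, in large amounts, by plasma cells.

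For 2 of the 5, RefSeq gives a promoter under the same name. These windows, from 250 bases before to 50 after a transcript start in RefSeq, are shown because they can be read directly. The Ntmt1 window is that of the protein-coding gene. Whether the noncoding entry shares that promoter is not given in the sources used here. Capitals mark TGACGT, the core of a cyclic AMP response element, on either strand.
Ntmt1, chr2:30807718-30808017, plus strand, GRCm38.p6: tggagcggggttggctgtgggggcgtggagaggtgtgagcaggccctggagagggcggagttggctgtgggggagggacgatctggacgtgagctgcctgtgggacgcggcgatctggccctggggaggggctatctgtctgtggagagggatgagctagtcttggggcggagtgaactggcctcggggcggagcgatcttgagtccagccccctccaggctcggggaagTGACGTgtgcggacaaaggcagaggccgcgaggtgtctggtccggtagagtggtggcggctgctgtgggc
4930542D17Rik, chr16:50590253-50590552, plus strand, GRCm38.p6: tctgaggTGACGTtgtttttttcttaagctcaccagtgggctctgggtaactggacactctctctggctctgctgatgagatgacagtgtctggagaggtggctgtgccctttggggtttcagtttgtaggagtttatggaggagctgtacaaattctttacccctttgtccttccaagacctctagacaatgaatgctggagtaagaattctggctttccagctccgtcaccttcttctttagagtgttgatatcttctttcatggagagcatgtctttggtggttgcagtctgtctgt
The listed noncoding Ntmt1 entry begins downstream of the start used here. That window is set on the transcript start at chromosome 2 position 30807968, the lowest start with a window for the coding gene. It lies inside the gene bounds given above and not at their first base. TGACGT occurred once in each window, starting 20 bases before that start for Ntmt1 and 243 bases before that of 4930542D17Rik, and 7.51% of 32851 RefSeq promoters of the same length held it. The window of 4930542D17Rik lies inside Ccdc54, on the strand opposite to that gene. The GC content was 67.7% for Ntmt1 and 46.7% for 4930542D17Rik, against a median of 52.7% over all promoters. GGGCGG, the GC box bound by Sp1, occurred at 3 places before Ntmt1 and at none in the window of 4930542D17Rik, and 35.7% of promoters held it. Neither window held TATAAA (13.6% of promoters), CCAAT (37.4%), the STAT6 motif TTCNNNNGAA (6.95%) or the STAT motif TTCNNNGAA (8.30%), each searched on both strands. The motif in capitals was picked after both windows had been read, and a match is a string of letters, not a bound site.

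The 5 RNAs fell into a bright pair and 3 dim ones. RP23-71C23.1, an intergenic lncRNA with no described role in the sources used here, had log2 IP signals of 0.34, 1.01 and 0.88 in controls 1 to 3 and 5.7, 5.4 and 3.5 in asthma mice 1 to 3. Every asthma mouse was above every control, and asthma 3 was the lowest of the asthma mice. The scanner's median intensities behind these values were 64 to 132 in the controls and 864 to 4595 in the asthma mice, on local backgrounds of 17 to 21. The control mean of 0.74 ± 0.36 (SD, n = 3) compared with 4.83 ± 1.19 (SD, n = 3) in the asthma mice, a difference of 4.09. The IP difference of each RNA chose it, so it is given as a description with no test. Within its own array, the probe stood at the 56.8th to 74.98th percentile of transcript probes in the controls and at the 91.8th to 96.2nd in the asthma mice.

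**Figure D1:**
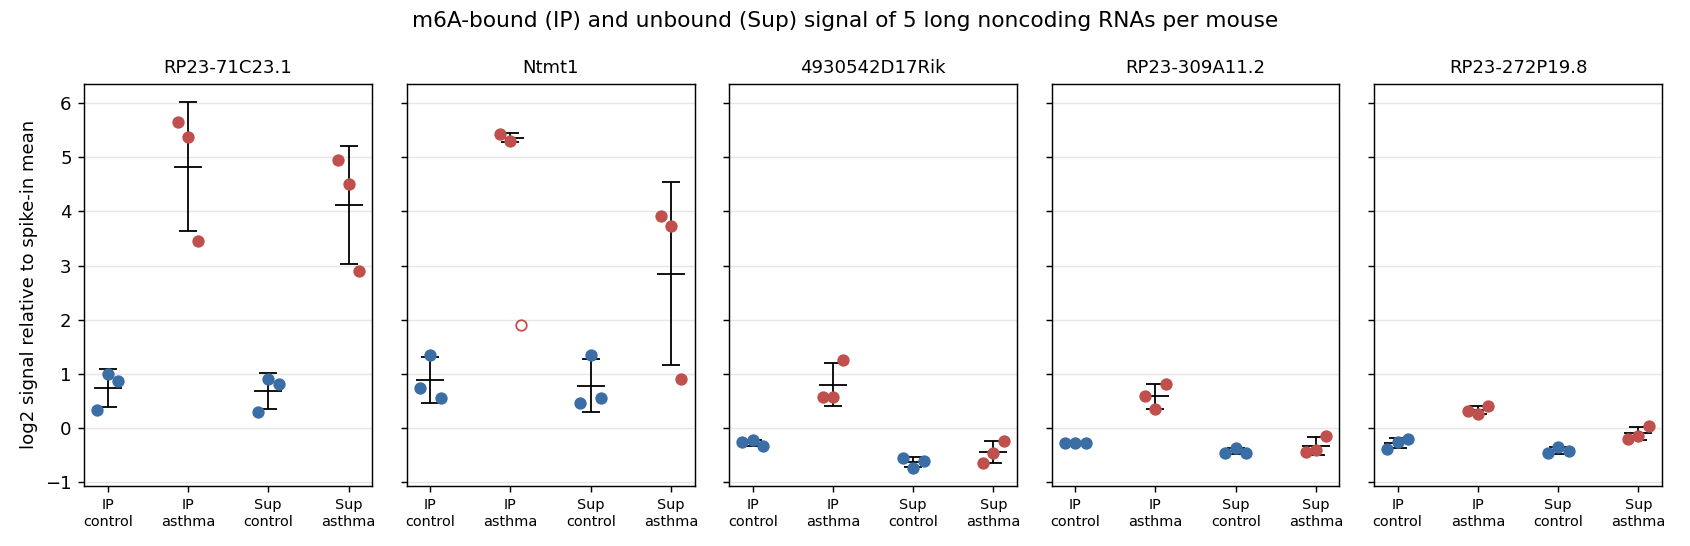
Log2 signal relative to the spike-in mean (vertical axis) of each RNA in IP and Sup, with 1 dot per mouse (blue control, red asthma, mice 1 to 3 from left to right in each column) and the mean ± SD in black. The open dot is the Ntmt1 spot of asthma 3 in IP, flagged as non-uniform and left out of the mean; the 3 RNAs on the right stay below 1.3 in every mouse, while RP23-71C23.1 reaches 5.66 and Ntmt1 5.42.

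The Ntmt1 entry gave 0.74, 1.36 and 0.55 in IP of controls 1 to 3 and 5.42 and 5.30 in asthma 1 and 2. Its spot in asthma 3 was flagged by the scanner as non-uniform in IP, with an error estimate of 17.1% of the signal, and was left out. Kept in, it read 1.90, above the highest control by less than the controls' own range. With the flagged spot left out the asthma mean was 5.36 ± 0.08 (SD, n = 2) against 0.88 ± 0.42 (SD, n = 3), a difference of 4.48, and with it the difference was 3.32. The 2 remaining asthma mice were at intensities of 3640 and 3898, the flagged spot at 271, and the controls at 70.5 to 180.

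The 3 dim RNAs were close to background in the controls. 4930542D17Rik, the annotated lncRNA that starts across Ccdc54, had IP signals of -0.25, -0.22 and -0.33 in controls 1 to 3 and 0.58, 0.58 and 1.26 in asthma mice 1 to 3. The groups did not overlap, and asthma 3 was the highest, opposite to its place for RP23-71C23.1. Its intensities were 20 to 34.5 in the controls, on local backgrounds of 18 to 21, and 100 to 159.5 in the asthma mice. RP23-309A11.2, antisense to Serpina1c, had -0.27, -0.27 and -0.28 in the controls and 0.60, 0.35 and 0.81 in asthma, with intensities of 24 to 34 and 87 to 109.5. RP23-272P19.8, from the lambda light chain locus, had -0.38, -0.25 and -0.20 in the controls and 0.32, 0.26 and 0.41 in asthma, with intensities of 25.5 to 36 and 74 to 79. All 3 were well above background in 3 of 3 asthma arrays but in only 1 of 3 control arrays, that of control 2. In that order, their mean IP differences were 1.07, 0.86 and 0.61, or 2.10-, 1.82- and 1.52-fold.

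**Figure D2:**
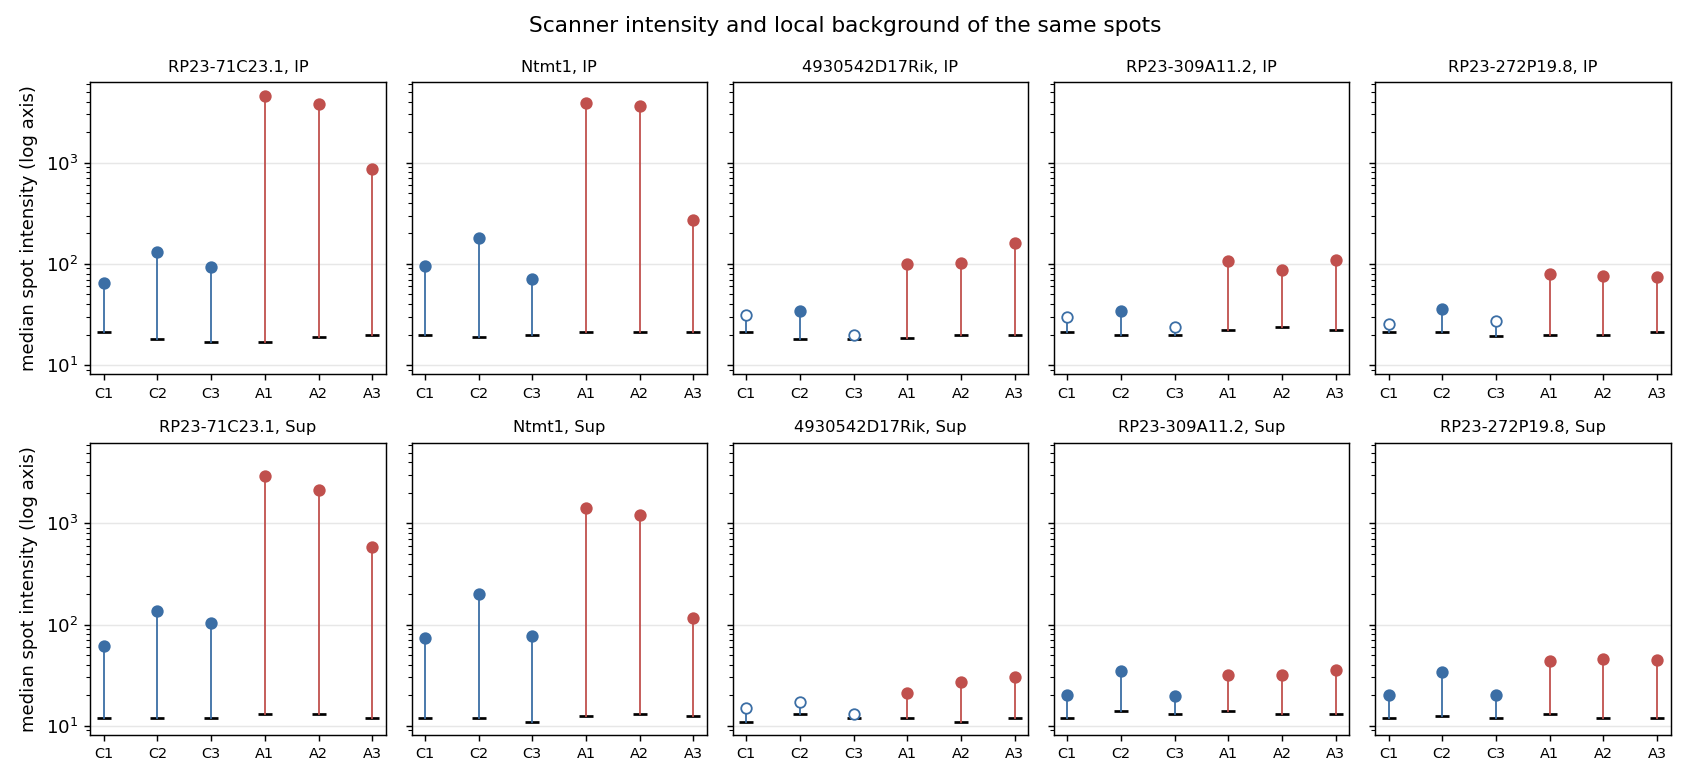
Scanner median intensity (dots, log axis) and local background (black dashes) of each RNA's spot in controls 1 to 3 (C1 to C3, blue) and asthma mice 1 to 3 (A1 to A3, red), IP above and Sup below; open dots were not well above background. The control dots of the 3 RNAs on the right in IP sit at 20 to 36, next to backgrounds of 18 to 21, while RP23-71C23.1 and Ntmt1 reach 3640 to 4595 in asthma 1 and 2.

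How large these dim differences were depended on the treatment of background and on scaling. In the deposited log2 table, 4930542D17Rik differed by 3.37 in IP, RP23-309A11.2 by 2.91 and RP23-272P19.8 by 2.31, against 1.07, 0.86 and 0.61 here, whereas the difference of RP23-71C23.1 was 4.43 against 4.09. The deposited difference of Ntmt1, with its flagged spot in, was 3.73. With the scanner's background-subtracted signal the 3 dim RNAs differed by 3.66, 2.88 and 2.36. In the same order, scaling to the 75th percentile gave 0.81, 0.60 and 0.35, and scaling to the bright spike-in probes alone 0.66, 0.46 and 0.20. Without scaling between arrays they differed by 1.25, 1.04 and 0.79. The scanner's error estimate for the control spots of these 3 RNAs in IP ran from 19.0% to 100.3% of the signal, and for their asthma spots from 10.1% to 11.195%. All 5 RNAs were higher in every asthma mouse than in every control in IP, where 20.5% of 37359 tested probes were. That count follows from how the 5 were chosen. Ranked by the deposited IP difference among EP3B probes with two-sample P under 0.05, the 5 held places 1, 3, 4, 6 and 11. Other probes held places 2, 5 and 7 to 10. RP23-272P19.8 was at 2.31 and the probe in place 12 at 2.30.

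The unbound fraction asked whether the same RNAs were also higher outside the m6A-bound pool. The Sup values come from the same lungs and the same spots as IP, so they are not independent of the choice, and the tests below are limma tests over all 45243 probes that passed the filter on low signal, being well above background in every mouse of 1 group or the other. All 5 passed it, 4930542D17Rik only through the asthma mice, and in IP the 3 dim RNAs also passed only through them. RP23-71C23.1 had Sup signals of 0.30, 0.91 and 0.82 in controls 1 to 3 and 5.0, 4.5 and 2.9 in asthma mice 1 to 3. The groups did not overlap and asthma 3 was again the lowest. The difference was 3.44 (SE 0.53, 95% interval 2.16 to 4.72), 10.9-fold, the 7th highest of the probes tested, with limma adjusted P = 0.297.

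Ntmt1 had Sup signals of 0.46, 1.34 and 0.55 in the controls and 3.92, 3.72 and 0.91 in the asthma mice. Asthma 3 lay below control 2, so the groups overlapped. The difference was 2.07 (SE 0.81, 95% interval 0.09 to 4.04), with limma adjusted P = 0.499. Without asthma 3 it was 3.04, and its Sup spot in that mouse carried no flag. The low place of asthma 3 for RP23-71C23.1 and Ntmt1 was not shared by 4 of the mRNAs used as cell markers below. Clca1, Slc26a4, Chil4 and Rnase2a had their highest Sup signal in asthma 3, at 5.16, 2.93, 4.41 and 5.40. The other markers did not peak there. In asthma mice 1 to 3, Arg1 had 1.36, 1.12 and 1.23, Cd209e 1.38, 1.55 and 1.38, and Gcnt3 -0.38, 0.05 and 0.03.

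Of the dim RNAs, 4930542D17Rik was well above background in Sup in 0 of 3 controls and in 3 of 3 asthma mice, so its control level is not measured there. Its Sup signals were -0.56, -0.73 and -0.60 in the controls and -0.64, -0.47 and -0.23 in asthma, and the groups overlapped. The means as read differed by 0.18, which is given as a description with no fold and no test.

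RP23-309A11.2 had Sup signals of -0.46, -0.36 and -0.46 in the controls and -0.44, -0.40 and -0.15 in asthma, which overlapped. Its difference was 0.10 (95% interval -0.15 to 0.34, limma adjusted P = 0.646). RP23-272P19.8 had -0.46, -0.34 and -0.42 in the controls and -0.20, -0.14 and 0.04 in asthma, which did not overlap. Its difference of 0.31 (95% interval 0.09 to 0.53, limma adjusted P = 0.499) was 1.24-fold and so under the fold threshold. That size depended on the treatment of background. Without background correction the difference was 0.76 and with the deposited values 1.57, both over the threshold.

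In all, 2 of the 5, RP23-71C23.1 and Ntmt1, exceeded 1.5-fold with unadjusted P under 0.05 in Sup, where 0.584% of the 45243 probes did so in the same direction. With limma's adjusted P, 0 of 5 did, against 0.0597% of probes. At unadjusted P under 0.05 without a fold threshold, RP23-272P19.8 joined them, where 1.66% of probes passed with asthma higher. Groups did not overlap for 2 of 5, RP23-71C23.1 and RP23-272P19.8, against 2.86% of probes. With 3 mice against 3, an exact two-sided permutation test of 1 RNA cannot go below 0.1. The median Sup difference of the 5 was 0.31, against -0.07 over all tested probes and -0.05 over the 5816 tested EP3B probes.

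On the deposited log2 values the same limma test called RP23-71C23.1, Ntmt1, RP23-309A11.2 and RP23-272P19.8 in Sup. RP23-71C23.1 and RP23-272P19.8 were called with adjusted P too. Of the 38554 probes tested there, 3.55% were called with asthma higher, and 0.303% with adjusted P. On these values 4930542D17Rik differed by 2.37, RP23-309A11.2 by 0.89 and RP23-272P19.8 by 1.57. The test also passed 4930542D17Rik at both levels, but its control spots were not well above background, so it is not counted. Compared with control 1 alone, the one control on the slide of the asthma mice, RP23-71C23.1 differed in Sup by 3.82, Ntmt1 by 2.39, 4930542D17Rik by 0.11, RP23-309A11.2 by 0.13 and RP23-272P19.8 by 0.36. On that slide the IP differences were 4.49, 4.62, 1.06, 0.86 and 0.71, in the same order. A fit with the slide as a block gave these same IP and Sup differences. The second slide held only controls, so that fit too compared the asthma mice with control 1 alone.

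**Figure D3:**
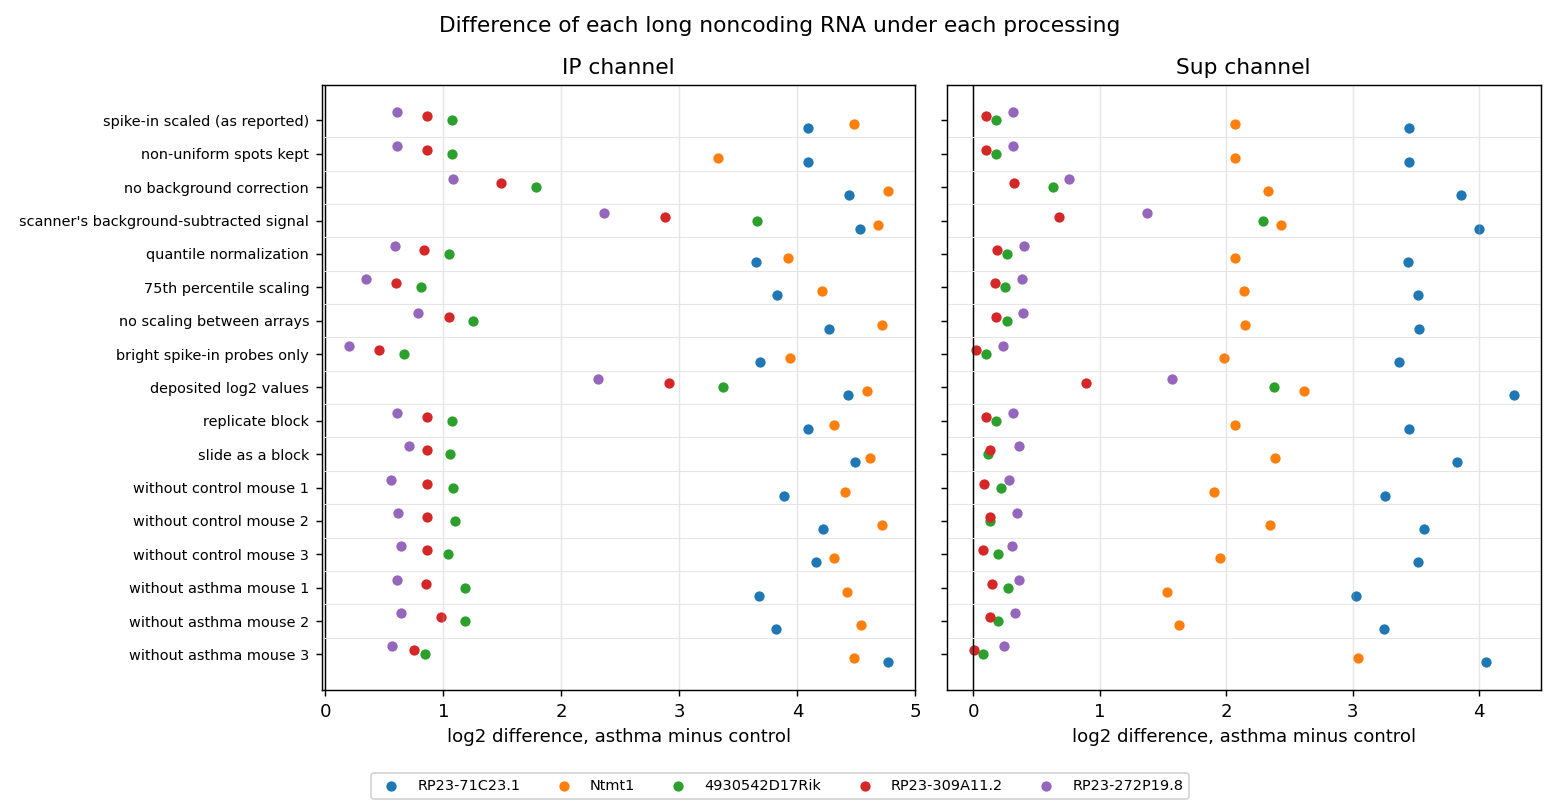
Log2 difference, asthma minus control (horizontal axis), of each RNA (colours) in IP and Sup under each processing (rows). RP23-71C23.1 and Ntmt1 stay above 1.5 in both channels in every row, whereas 4930542D17Rik moves in Sup from 0.18 as reported to 2.37 with the deposited values.

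The ratio of IP to Sup set the bound against the unbound signal of the same spot. It holds the IP values that chose the RNAs and so carries no test. RP23-71C23.1 had log2 ratios of 0.04, 0.09 and 0.05 in controls 1 to 3 and 0.71, 0.85 and 0.57 in asthma mice 1 to 3. Ntmt1 had 0.28, 0.02 and 0.00 in the controls and 1.497 and 1.58 in asthma 1 and 2, and 0.997 in asthma 3 if its flagged spot was kept. For this pair, the means of both channels were higher in asthma, and IP by more than Sup on this scale. In Sup the groups of Ntmt1 overlapped.

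Of the dim RNAs, 4930542D17Rik and RP23-309A11.2 differed by more in the ratio than in Sup with the processing used here. For RP23-272P19.8 the ratio (0.29) and Sup (0.31) differed by about as much. This order depended on the treatment of background. With the deposited values 4930542D17Rik differed by less in the ratio (0.99) than in Sup (2.37), as did RP23-272P19.8 (0.74 and 1.57). RP23-309A11.2 kept its order there, at 2.02 and 0.89. The control IP spots of all 3 were not well above background in 2 of 3 mice. 4930542D17Rik had ratios of 0.31, 0.51 and 0.27 in the controls and 1.21, 1.04 and 1.49 in asthma. RP23-309A11.2 had 0.19, 0.09 and 0.18 against 1.04, 0.76 and 0.96, and RP23-272P19.8 had 0.08, 0.09 and 0.23 against 0.52, 0.40 and 0.37. The mean differences of the 5 were 0.65, 1.44, 0.89, 0.76 and 0.29, with a median of 0.76 against 0.25 over all tested probes. With the processing used here, groups did not overlap for any of the 5, but this held with asthma higher for 42.0% of the 37077 probes tested. The median ratio over all probes was itself higher in each asthma mouse than in each control. With the deposited values the groups overlapped for RP23-71C23.1, whose ratio differed by 0.16, and for RP23-272P19.8.

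The ratio differences also turned on scaling. Loess within each array, which removes a trend of the ratio with brightness, left 0.00 for RP23-71C23.1 and 0.79 for Ntmt1. Scaling to the 75th percentile, which moved the median IP difference of all probes from 0.15 to -0.11, gave -0.04 for RP23-272P19.8, and scaling to the bright spike-in probes alone, which moved it to -0.25, gave -0.03. The ratio differences of 4930542D17Rik and RP23-309A11.2 were positive under each scaling, the lowest being 0.56 and 0.43.

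The Sup profiles over the 6 mice were also set beside those of 11 mRNAs of the study's main lists. The measure was the root mean square difference of the log2 profiles, each centred on its own mean, which reflects the size of a difference as well as its shape. Nearest to RP23-71C23.1 were Slc26a4, an anion exchanger of goblet cells, at 0.90 and Chil4, a chitinase-like protein, at 0.91. Nearest to Ntmt1 were Cd209e, a C-type lectin gene, at 1.005 and Arg1, which encodes arginase, at 1.04. Nearest to the dim RNAs were Gcnt3, a mucin glycosyltransferase, and Ptgdr, a prostaglandin D2 receptor, with 4930542D17Rik at 0.21 and 0.24, RP23-309A11.2 at 0.27 and 0.29, and RP23-272P19.8 at 0.18 and 0.19. Both of these mRNAs, like 4930542D17Rik, were not well above background in Sup of any control, whereas RP23-309A11.2 and RP23-272P19.8 were in 3 of 3.

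Marker genes of other cells moved in the same lungs. The summed Sup signal of the goblet cell markers Clca1, Slc26a4 and Gcnt3 was 4.62 to 5.47 (log2) in asthma and 1.08 to 2.06 in controls. That of Arg1, Chil4 and Cd209e, taken as macrophage markers, was 3.99 to 4.71 and 1.51 to 1.59. Chil4 made up the largest part of it, with a mean Sup signal of 3.87 in asthma against 1.24 for Arg1 and 1.44 for Cd209e. The eosinophil ribonuclease Rnase2a had 4.997 to 5.40 and -0.26 to -0.02. The same limma test called 2 of 3, 3 of 3 and 1 of 1 of these markers, in that order of lists, at 1.5-fold and unadjusted P under 0.05. Of the 45243 probes, 0.584% were called in that direction. Gcnt3 was the one not called, and its Sup spots were not well above background in any control. Those of Clca1 were well above background in 2 of 3 controls. With adjusted P, Clca1 was not called either (limma adjusted P = 0.181) and the others were, against 0.0597% of probes. These markers were chosen from mRNAs that the study lists for these samples, so their direction is no independent evidence. Their part in the lncRNA values was not tested.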

How the data were processed

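Lung RNA of 3 asthma and 3 control mice was measured on 6 two-colour Arraystar arrays (IP in Cy5, Sup in Cy3). The deposited scanner files hold spot intensity, local background and flags from Agilent Feature Extraction 11.0.1.1. The 2 files of each mouse were identical, so each mouse gave 1 array. The deposited log2 table covers 41337 probes, which the authors scaled to the mean spike-in signal. The authors' background step is not given in the sources used here. The deposited table located the 5 lncRNAs (difference within 1e-06 on the log2 scale, 1 probe each) and was an alternative.

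Here, median intensities were background-corrected with normexp (offset 50, limma 3.58.1, R 4.3.3), put on the log2 scale and reduced by the mean of 114 spike-in probes per array and channel. Spots flagged as non-uniform were left out. The filter on low signal kept probes well above background in all mice of at least 1 group. Sup was fitted with limma (lmFit and eBayes), with Benjamini-Hochberg adjustment, and the test was checked on simulated data. P-values measure the spread between 3 mice a group, and the number of arrays limits precision. Loess and other scalings, background treatments, blocks and leaving out each mouse were alternatives.

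The 5 lncRNAs and all lists were chosen with earlier results of these data known. The named mRNAs are, for each lncRNA, the 2 nearest of 11 by Sup profile, and the marker lists. The files pair no gene names with probes, so other genes of the m6A pathway were not analysed here. Sequences, names and coordinates come from RefSeq GRCm38.p6, whose bounds of 4930542D17Rik equal the listed locus. Replicate numbers did not pair the mice.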

Additional observations from a re-analysis of the deposited data

How the results depend on the processing

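All 5 IP differences and all 5 Sup differences kept their sign under every alternative run. The Sup difference rested on background for the dim RNAs. Without background correction it was 0.63 for 4930542D17Rik and 0.76 for RP23-272P19.8. RP23-71C23.1, Ntmt1 and RP23-272P19.8 were called there (RP23-71C23.1 with adjusted P too), against 1.43% and 0.115% of all probes. With the scanner's background-subtracted signal it was 2.29 and 1.37, again with 4 called and 1 with adjusted P, against 2.58% and 0.201%. With the deposited log2 values the Sup difference was 2.37 for 4930542D17Rik, 0.89 for RP23-309A11.2 and 1.57 for RP23-272P19.8. RP23-71C23.1, Ntmt1, RP23-309A11.2 and RP23-272P19.8 were called, RP23-71C23.1 and RP23-272P19.8 with adjusted P too, against 3.55% and 0.303%. The test also passed 4930542D17Rik under each of these background treatments, but its control spots were not well above background, so it is not counted. One RNA passed with adjusted P under 75th percentile scaling (0.181% of probes) and with bright spike-in probes only (0.0973%). Ntmt1 lost its call, leaving 1 RNA called, with no scaling (2.15) and without the empirical Bayes step (2.07). With the slide as a block the Sup difference of Ntmt1 was 2.39, which rests on control 1 alone. Leaving out 1 mouse at a time, Ntmt1 ranged from 1.53 to 3.04 in Sup and lost its call without control 1, control 3, asthma 1 or asthma 2, so that 1 to 2 RNAs were called, and 0 to 1 with adjusted P (1 without asthma 3). The ratio difference of RP23-272P19.8 was -0.037 under 75th percentile scaling and -0.032 with bright spike-in probes only. The cause of these changes was not tested.

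The replicate numbers name mice and do not pair them: deviations of same-numbered mice correlated at -0.37, 0.39 and 0.25 in IP and at -0.35, 0.14 and 0.26 in Sup. With the replicate number as a block, the Sup difference was 3.44 for RP23-71C23.1 and 2.07 for Ntmt1, and 2 RNAs were called, 0 with adjusted P. The control signals of the 3 dim RNAs lay near background, which limits their fold changes.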
